A study of Mus musculus with 4 samples.

Results

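The channels described here are calcium-activated, M-type and ERG-type potassium channels: the SK channel genes Kcnn1, Kcnn2 and Kcnn3, the BK channel genes Kcnma1 and Kcnmb4, the KCNQ gene Kcnq3, the ERG genes Kcnh2 and Kcnh7 and the related EAG gene Kcnh1. Every probe set with exactly 1 of these 9 symbols in the platform annotation was taken, which gave 16 of the 45037 probe sets tested. RNA came from midbrains of adult mice (6 to 12 weeks, both sexes) of the Slc6a3 JD1640 TRAP line, which carry a BAC transgene that puts an EGFP-tagged ribosomal protein, RPL10A, under Slc6a3 regulatory sequences. TRAP arrays (replicates 2 and 4) measured RNA pulled down with these ribosomes, and input arrays (replicates 1 and 2) measured RNA of the whole midbrain of mice of the same line, with 5 mice pooled for each replicate. Input therefore also holds dopamine neuron RNA, and all mice of both fractions carry the transgene, from 1 integration line started in FVB oocytes and bred to C57BL6/j. The labels call the second fraction unbound RNA and the methods call it input. The methods state that input was collected in parallel from each replicate, so by their number the replicate 2 arrays of both fractions stand for 1 pool.

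SK channels have no voltage sensor and open when calcium binds the calmodulin attached to them, which produces an afterhyperpolarization, and in midbrain dopamine neurons they keep pacemaker firing regular. BK channels need both calcium and depolarization and shorten the action potential. KCNQ channels carry the M-current, a slow brake on firing that muscarinic receptors relieve, and ERG channels pass current as they recover from inactivation and help to end plateau depolarizations.

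Levels are in arbitrary expression units, 2 raised to the authors' GCRMA values, and 50 units was taken as background. A probe set is termed above background if, in TRAP or in input, its 2 arrays both reached 50 units, and a change was called at an adjusted p under 0.05 from limma over all 45037 probe sets. The number of arrays limits the precision. The p-values rest on the spread between the 2 arrays of each fraction, moderated by limma over all 45037 probe sets. That spread holds differences between pools, amplifications and hybridizations together. The moderation was slight, with 0.32 prior degrees of freedom. The adjustment also spans the probe sets not above background, of which limma called 19.0% higher and 36.5% lower. All 4 arrays were fitted as independent, although the replicate 2 arrays of TRAP and input stand for 1 pool by their number. The median log2 fold change of TRAP over input was 0.44 over all 17073 probe sets above background, so each log2 fold change is best read against that value. All 8 dopamine neuron markers examined, such as Th and Slc6a3, rose in TRAP, with a median log2 fold change of 4.45. The 3 GABAergic, 6 astrocyte and 5 oligodendrocyte markers above background all had negative values, with medians of -1.26, -2.01 and -1.30. The oligodendrocyte markers summed to 68067 units on the replicate 2 array of TRAP and 31529 on that of replicate 4.

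Of the 16 probe sets, 7 were above background, and these represent Kcnn2, Kcnma1, Kcnmb4, Kcnq3 and Kcnh2. The single change called among them was a rise of Kcnh2. That is 1 of 7 called higher, against a background of 18.8% of all probe sets above background, and 0 of 7 called lower, against 9.13%. At an unadjusted p under 0.05 from limma, 1 of the 7 was higher, beside 28.0% of all probe sets above background, and 1, Kcnn2, was lower, beside 13.0%. The 4 genes Kcnn1, Kcnn3, Kcnh1 and Kcnh7 had no probe set above background. Both TRAP arrays lay above both input arrays for 4 of the 7, beside 51.5% of all probe sets above background, and below them for 1 of the 7, beside 24.9%. Of the 4, Kcnma1 1425987_a_at passed the background filter through TRAP alone, which fixed its order. Another of the 4, 1428948_at, is a probe set of the same gene. In bulk RNA of this kind, fewer cells of a type and less RNA per cell cannot be told apart.

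**Figure D1:**
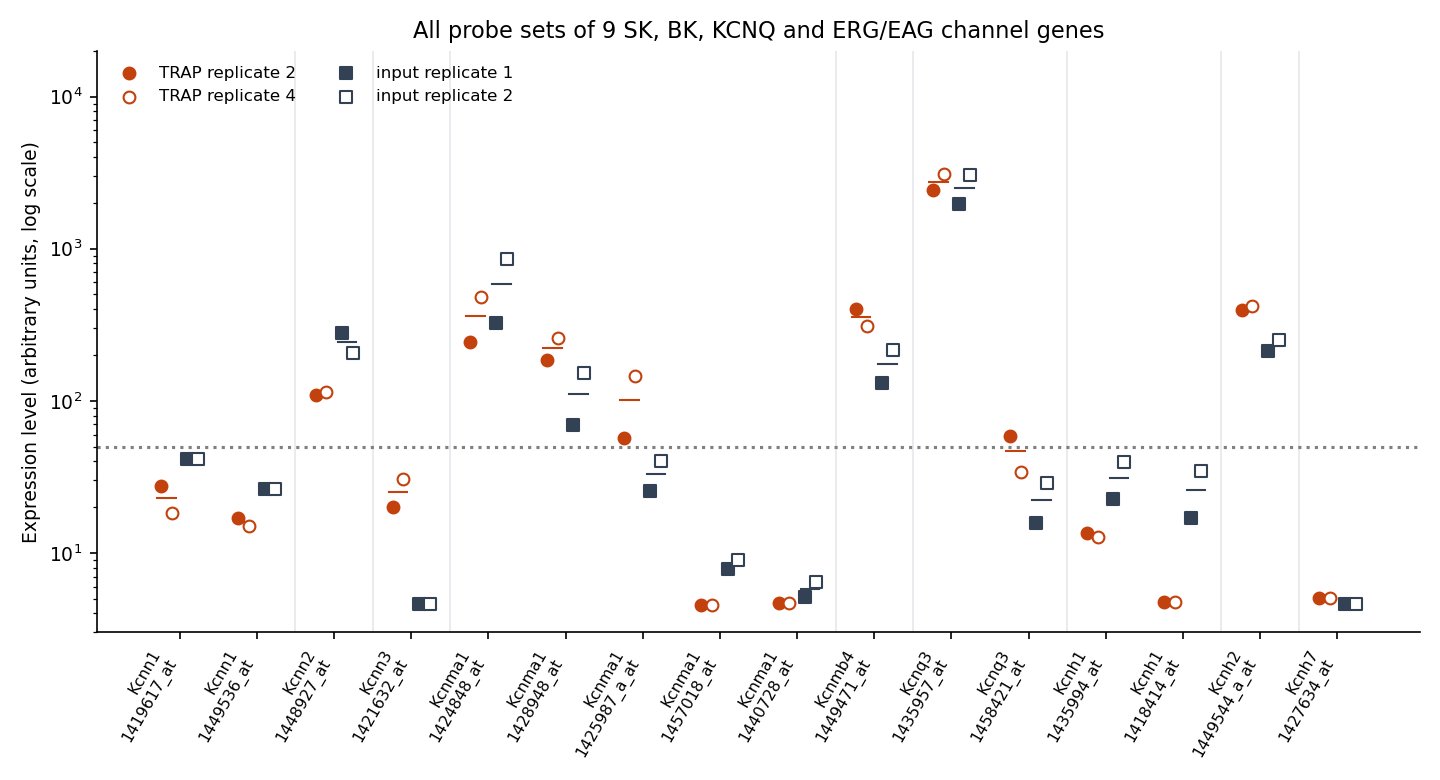
Expression level (arbitrary units, log axis) of every probe set of the 9 genes, with TRAP arrays as circles, input arrays as squares, short lines for the mean of a fraction and a dotted line at 50 units. The values of Kcnh2 in TRAP (398 and 420 units) lie above those in input (211 and 250), and those of Kcnn2 (110 and 114) lie below (280 and 206).

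Among the SK genes only Kcnn2 was above background, and it was measured at a lower level in TRAP. Kcnn2, the SK2 subunit, was at 110 units on TRAP replicate 2 and 114 on replicate 4, against 280 on input replicate 1 and 206 on replicate 2. The TRAP arrays nearly coincided and both lay below both input arrays. The mean was 112 ± 2.98 units (SD, n = 2) in TRAP and 243 ± 52.3 in input, a log2 fold change of -1.10 (standard error 0.21, 95% interval -1.89 to -0.32). Its adjusted p was 0.0528 from limma, so the change was not called on the deposited values, although the value lay 1.54 below the median of all probe sets above background. The call depended on the fit. It passed after centring the arrays on bright probe sets (log2 fold change -1.51, adjusted p = 0.0094 from limma) and after quantile normalization (-1.36, adjusted p = 0.0319), both of which remove most of the offset between the fractions. The log2 fold change was -0.88 without input replicate 1 and -1.32 without input replicate 2. It was -1.08 without TRAP replicate 2 and -1.13 without TRAP replicate 4. Each of these fits leaves 1 array in a fraction, so its spread comes from the other fraction alone. The 3 measured GABAergic markers, all with negative log2 fold changes and 1 of them called lower, were not at the floor and summed to 2839 to 5960 units on the TRAP arrays and 5968 to 12865 on the input arrays. Their part in the Kcnn2 value was not tested.

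Kcnn3, the SK3 subunit that dopamine neurons are best known for, lay under 50 units on all arrays. Its single probe set read 19.9 and 30.5 units on TRAP replicates 2 and 4, and 4.59 on both input arrays, which is the lowest value that any probe set has in input. The TRAP arrays were thus above the floor and the input arrays on it, but neither fraction reached background and no fold is given. Kcnn1, the SK1 subunit, has a pair of probe sets. The brighter read 27.7 and 18.2 units in TRAP and 41.6 on both input arrays. The dimmer read 17.1 and 15.0 units in TRAP and 26.4 on both input arrays. Both Kcnn1 probe sets were therefore lower in TRAP and Kcnn3 higher, all at levels where the fractions differ by an offset of their own. The median level of all probe sets was 7.28 and 7.13 units on TRAP replicates 2 and 4, and 10.2 and 10.1 on input replicates 1 and 2. Kcnn1 lay in the direction of this offset and Kcnn3 in the other. The part of the offset in these values was not tested.

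That offset limits every probe set that was not above background. In both arrays of at least 1 fraction, 7 of these 9 member probe sets hold the same value, so limma sees no spread there. It called 2 of the 9 higher (Kcnn3 and Kcnh7) and 2 lower (the dimmer Kcnn1 and 1 of Kcnma1), beside 19.0% and 36.5% of all probe sets not above background, and these calls are not counted as changes.

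Kcnma1, the pore-forming subunit of BK channels, gave different answers on its probe sets. It has 5, of which 3 were above background. On the brightest, 1424848_at, the level was 244 units on TRAP replicate 2 and 480 on replicate 4, against 326 on input replicate 1 and 849 on replicate 2. These fractions overlapped, with a log2 fold change of -0.62 ± 0.78 (SE; limma adjusted p = 0.548, 95% interval -3.59 to 2.35). On the second, 1428948_at, the level was 186 and 260 units in TRAP and 68.9 and 152 in input. Here both TRAP arrays were the higher ones, with a log2 fold change of 1.10 ± 0.58 (SE; limma adjusted p = 0.227). On the dimmest of these, 1425987_a_at, whose suffix marks probes shared by alternative transcripts of the gene, the level was 57.2 and 145 units in TRAP and 25.5 and 40.5 in input. Input was below background on it, so the bound is at least 1.82-fold higher in TRAP (limma adjusted p = 0.191, log2 95% interval -1.13 to 4.13), or 1.14-fold from TRAP replicate 2 alone and 2.89-fold from TRAP replicate 4 alone. The other probe sets, 1457018_at and 1440728_at, did not exceed 8.95 units on any array.

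The Kcnma1 probe sets can also be set against each other within an array, where a scaling factor of the array drops out. An offset that varies with the level would not drop out. The second probe set minus the brightest was -0.39 and -0.88 log2 units in TRAP and -2.24 and -2.48 in input. The dimmest of the 3 minus the brightest was -2.09 and -1.73 in TRAP and -3.67 and -4.39 in input. In both pairs the values of the fractions did not overlap, while those of the second against the dimmest did. The dimmest was under background in input, so its differences there rest on values under 50 units. Its own order between the fractions was fixed by the filter. These values describe pairs picked because their fold changes differed, and they were not tested. The log2 difference between the 3′ and 5′ Gapdh control probe sets was 4.96 and 3.52 for TRAP and 6.81 and 6.39 for input, and its part in these differences was not tested. For the gene as a whole no direction can be given. Averaging all its probe sets turned the log2 fold change to 0.16. That mean includes 1457018_at (-0.87) and 1440728_at (-0.30), which were not above background and draw it down. The brightest probe set alone gave 0.07 without input replicate 2.

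**Figure D2:**
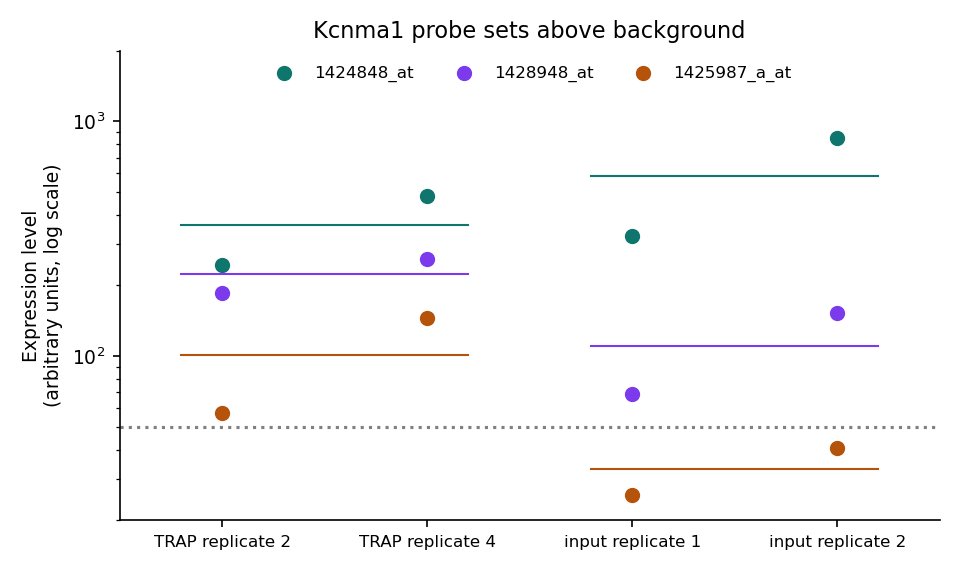
Level (arbitrary units, log axis) of the 3 Kcnma1 probe sets above background on each array, with horizontal lines for the mean of a fraction and a dotted line at 50 units. From input to TRAP the mean of 1424848_at goes from 587 to 362 units, while that of 1428948_at goes from 110 to 223.

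Kcnmb4 encodes the auxiliary beta subunit of BK channels that is typical of neurons and slows their gating. Its level was 403 units on TRAP replicate 2 and 310 on replicate 4, against 131 on input replicate 1 and 217 on replicate 2. Both TRAP arrays were above both input arrays. The mean was 356 ± 66.1 units (SD, n = 2) in TRAP and 174 ± 60.8 in input, a log2 fold change of 1.07 (standard error 0.38, 95% interval -0.38 to 2.52) that was not called (limma adjusted p = 0.1297). It was called under none of the alternatives, with log2 fold changes from 0.66 to 1.44. Its log2 fold change lay close to that of the second Kcnma1 probe set (1.10) and above that of the brightest (-0.62), so a comparison of the beta subunit with the pore turns on which Kcnma1 probe set is read.

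Kcnq3, a subunit of the channel that carries the M-current, showed no difference beyond its spread. Its bright probe set read 2412 units on TRAP replicate 2 and 3108 on replicate 4, against 1976 on input replicate 1 and 3041 on replicate 2. The fractions overlapped, with a log2 fold change of 0.16 ± 0.34 (SE; limma adjusted p = 0.711) and a 95% interval from -1.11 to 1.43 that leaves a change of either sign possible. Its sign was not stable: the log2 fold change was -0.25 after centring, -0.37 after quantile normalization, -0.02 without TRAP replicate 4 and -0.15 without input replicate 1. The dim Kcnq3 probe set was at 59.1 and 33.9 units in TRAP and 15.65 and 28.8 in input, and so reached 50 units on 1 array alone.

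Kcnh2, the ERG1 channel, rose in TRAP. Its level was 398 units on TRAP replicate 2 and 420 on replicate 4, against 211 on input replicate 1 and 250 on replicate 2. Both TRAP arrays stood clear of both input arrays, and the arrays of a fraction lay close together. The mean was 409 ± 15.4 units (SD, n = 2) in TRAP and 230 ± 27.3 in input, a 1.78-fold difference (log2 fold change 0.83 ± 0.12, SE; limma adjusted p = 0.0326). This is 0.39 above the median of all probe sets above background. It stayed positive under every alternative run but was not called after centring (0.42, adjusted p = 0.0682 from limma), after quantile normalization (0.48, adjusted p = 0.117), in a fit of probe sets above background only (0.0509), with values under 50 units raised to 50 (0.128), or without TRAP replicate 2 (0.150), TRAP replicate 4 (0.168) or input replicate 1 (0.0562). The 5 general neuron markers summed to 58307 to 65955 units on the TRAP arrays and 36633 to 40710 on the input arrays, with 4 positive, 1 negative and 0 called by limma, and their part in the Kcnh2 value was not tested.

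Of the other members of the EAG and ERG family, Kcnh7, the ERG3 channel, read 5.07 units on both TRAP arrays and 4.59 on both input arrays, at or next to the floor of each fraction. Kcnh1, the EAG1 channel, read 13.5 and 12.8 units in TRAP and 22.6 and 39.6 in input on its brighter probe set, and 4.79 on both TRAP arrays and 17.1 and 34.7 in input on the dimmer. Both Kcnh1 probe sets read lower in TRAP, in the direction of the offset between the fractions, and none reached background. The part of that offset in the Kcnh1 values was not tested.

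**Figure D3:**
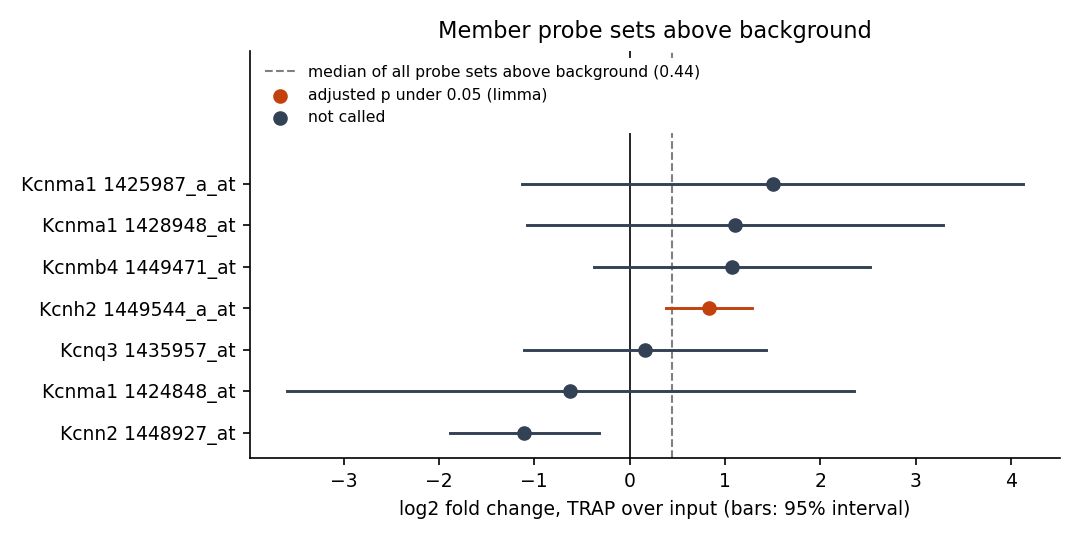
TRAP over input, as log2 fold change, for the 7 member probe sets above background, with 95% intervals from limma that are not adjusted for the number of probe sets, and a dashed line at the median of all probe sets above background (0.44). Kcnh2 alone is called, and Kcnn2, whose interval also leaves out 0, has an adjusted p of 0.0528.

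The arrays of a fraction also differed among themselves for these channels. Of the 7 probe sets above background, 6 had a higher level on TRAP replicate 4 than on TRAP replicate 2, beside 50.8% of all probe sets above background, and the exception was Kcnmb4. On input replicate 2, 6 of the 7 were higher than on input replicate 1, beside 47.8%, with Kcnn2 as the exception. The 3 Kcnma1 probe sets, which share a transcript source, make up 3 of each 6 and moved together in both fractions. Their differences reached 1.34 log2 units between the TRAP arrays and 1.38 between the input arrays, wider than the 0.08 and 0.24 of Kcnh2. All 8 dopamine neuron markers were higher on TRAP replicate 4, with sums of 167932 units there and 131802 on TRAP replicate 2, and the GABAergic markers were lower there (2839 and 5960). These are values of single arrays, and the part of the markers or of the control probe sets in them was not tested.

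Only 4 of the remaining genes of the SK, BK, sodium-activated, KCNQ and EAG/ERG families were above background, and their values in TRAP were lower. Of 25 such genes, 19 had a probe set with their own symbol and 4 were above background on the brightest. The log2 fold changes of all 4 were below 0 (median -1.51), beside 34.2% of all genes above background. Of these 4 genes, 2 fell and 0 rose, beside 6.87% and 18.7% of all genes above background. The 2 that fell, Kcnt2 and Kcnmb2, passed the background filter through input alone. Their direction was thus fixed by the filter. Kcnt2, which encodes a sodium-activated potassium channel, read 18.4 units on both TRAP arrays and 166 and 162 in input, at least 3.29-fold lower in TRAP. Its limma adjusted p of 6.33e-05 belongs to the log2 fold change of the deposited values (-3.16), not to the bound. The TRAP arrays held the same value, so they added no spread. Kcnmb2, the beta subunit that makes BK channels inactivate, read 33.6 and 32.2 units in TRAP and 80.6 and 70.2 in input, at least 1.50-fold lower (limma adjusted p = 0.0118). It was not called without TRAP replicate 2 or TRAP replicate 4, or with values under 50 units raised to 50. Kcnq5, another M-current subunit, read 169 and 107 units in TRAP and 392 and 583 in input (log2 fold change -1.83 ± 0.41, SE; limma adjusted p = 0.0695). It was called lower after centring, in a fit of probe sets above background only and with an intensity trend. Kcnt1, the second sodium-activated channel, read 104 and 129 units in TRAP and 185 and 244 in input (log2 fold change -0.88, standard error 0.23, limma adjusted p = 0.0852). Kcnt1 was called lower after centring. In all 4 the TRAP arrays lay below the input arrays, beside 2363 of all 10014 genes above background. For Kcnt2 and Kcnmb2 the filter fixed that order, and neither Kcnq5 nor Kcnt1 was called on the deposited values. Of the BK beta subunits, Kcnmb2 lay below 0, a sign fixed by the filter, and Kcnmb4 above 0, with an interval that includes 0. These values do not resolve a contrast between them.

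Proteins that bind or regulate these channels were mostly not called. Of 12 such genes, 8 had a probe set with their own symbol, all 8 were above background, and 1 fell and 0 rose, beside 6.87% and 18.7% of all genes above background. The 1 was Ank3, or ankyrin G, which anchors KCNQ channels at the axon initial segment. It read 2213 and 1644 units in TRAP and 5054 and 4668 in input (log2 fold change -1.35 ± 0.21, SE; limma adjusted p = 0.0371), a change not called without TRAP replicate 4, input replicate 1 or input replicate 2, or with values under 50 units raised to 50. The phosphatase subunit Ppp2cb, named after its values were seen, read 566 and 799 units in TRAP and 284 and 211 in input (log2 fold change 1.46 ± 0.30, SE; limma adjusted p = 0.0631), and it was called higher after centring, in a fit of probe sets above background only and with an intensity trend. The other catalytic subunit, Ppp2ca, was at 0.18 (adjusted p = 0.517), the lipid kinase Pip5k1c, which makes the phospholipid that KCNQ channels need, at 0.27 (0.475), and the phospholipase Plcb1, which breaks it down, at 0.15 (0.738), all log2 fold changes with adjusted p from limma and with overlapping fractions.

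Among all potassium channel genes, meaning the 84 measured genes with a symbol that starts with Kcn, 40 were above background. Of these 40 genes, 26 (65.0%) had a negative log2 fold change, whereas 34.2% of all genes above background did, and their median was -0.62. On the brightest probe set, Kcnmb4 ranked 4th from the top, Kcnh2 8th, Kcnq3 13th, Kcnma1 21st and Kcnn2 27th, with log2 fold changes of 1.07 to -1.10 inside a range of 4.61 to -3.73 for the 40. Above Kcnmb4 stood Kcns3, a silent subunit that modifies Kv2 channels (at least 5.02-fold higher, limma adjusted p = 0.00554), Kcnd3, an A-type channel (log2 fold change 2.17, adjusted p = 0.0758), and Kcnip4, an auxiliary subunit of A-type channels (1.44, adjusted p = 0.0861). The lowest log2 fold changes were those of Kcnk10, a leak channel (at least 1.90-fold lower, limma adjusted p = 0.00249), Kcnt2, and Kcnj16, an inward rectifier of glia and other cells (at least 5.10-fold lower, limma adjusted p = 0.0284). Genes below background in a fraction have only a bound, so their places, those of Kcns3, Kcnk10, Kcnt2, Kcnj16 and Kcnmb2 among them, are not fixed by these values. Where both arrays of a fraction lay under 50 units, the filter was passed through the other fraction alone, which fixed the sign. The adjusted p beside a bound tests the log2 fold change of the deposited values. Kcnk10, Kcnt2 and Kcnj16 each held the same value on both TRAP arrays, so limma saw no spread there. On the brightest probe sets, Kcnn2 (-1.10) and Kcnmb4 (1.07) had the largest absolute log2 fold changes of the members and did not differ in size beyond their standard errors. The dimmer Kcnma1 probe sets above background were at 1.50 (1425987_a_at) and 1.10 (1428948_at). The Kcn genes with the profile most like that of Kcnn2 over the 4 arrays were Kcnmb2, Kcna2 and Kcna1, with mean absolute differences of 0.09, 0.24 and 0.27 log2 units after each profile was centred on its mean. Kcnmb2 was below 50 units on both TRAP arrays, so its likeness rests on values under background, and with 4 arrays the measure describes these arrays alone.

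**Figure D4:**
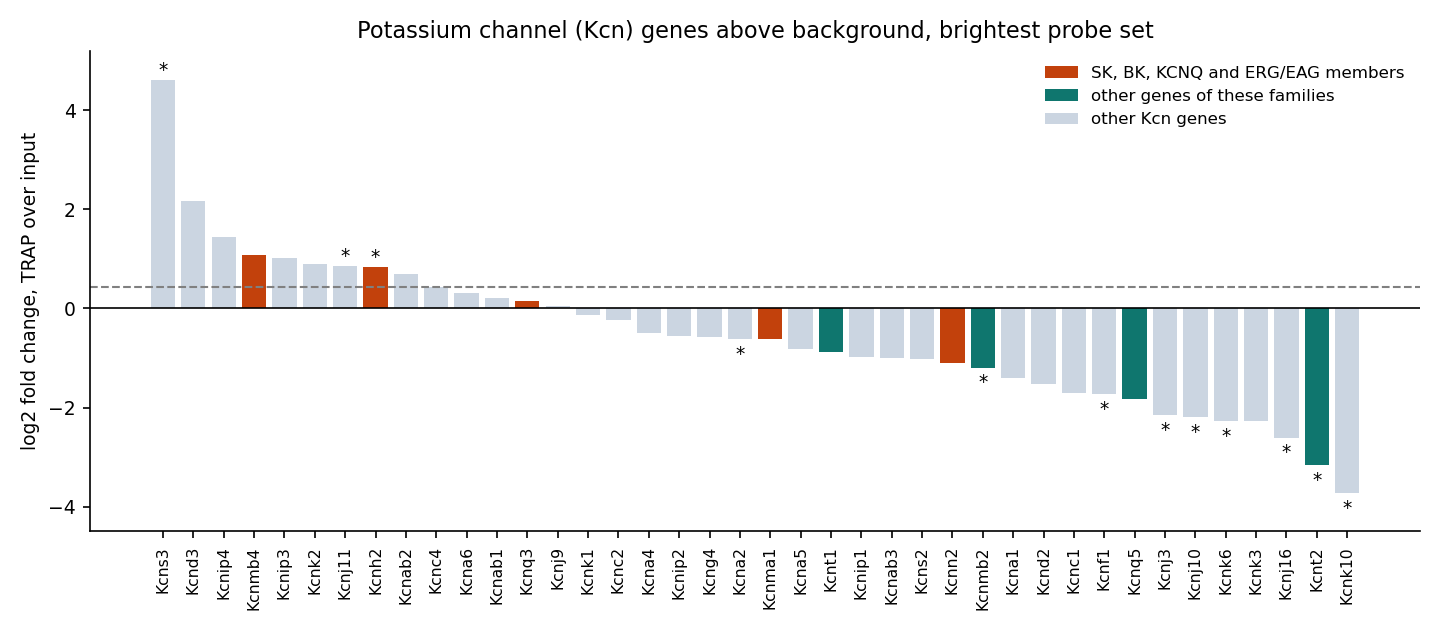
TRAP over input, as log2 fold change, for the 40 Kcn genes above background on their brightest probe set, ordered from high to low, with the members in orange, other genes of their families in green and the rest in grey. Asterisks mark an adjusted p under 0.05 from limma, bars of genes below background in a fraction rest on values under 50 units, and the dashed line is the median of all probe sets above background (0.44).

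The order of the members between those extremes is only partly resolved. Kcnmb4 and Kcnh2 are neighbours among the members whose intervals overlap, as do those of Kcnq3 and Kcnma1, and Kcnma1 would stand among the higher members if its second probe set were used. The interval of Kcnh2 (0.38 to 1.28) lay apart from that of Kcnn2 (-1.89 to -0.32), while that of Kcnmb4 (-0.38 to 2.52) overlapped it. The positions of Kcnh2 above Kcnn2 and of Kcnmb4 above Kcnn2 held under every alternative in which log2 fold changes were recomputed. These alternatives reuse the same arrays, so they do not resolve Kcnmb4 against Kcnn2.

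**Figure D5:**
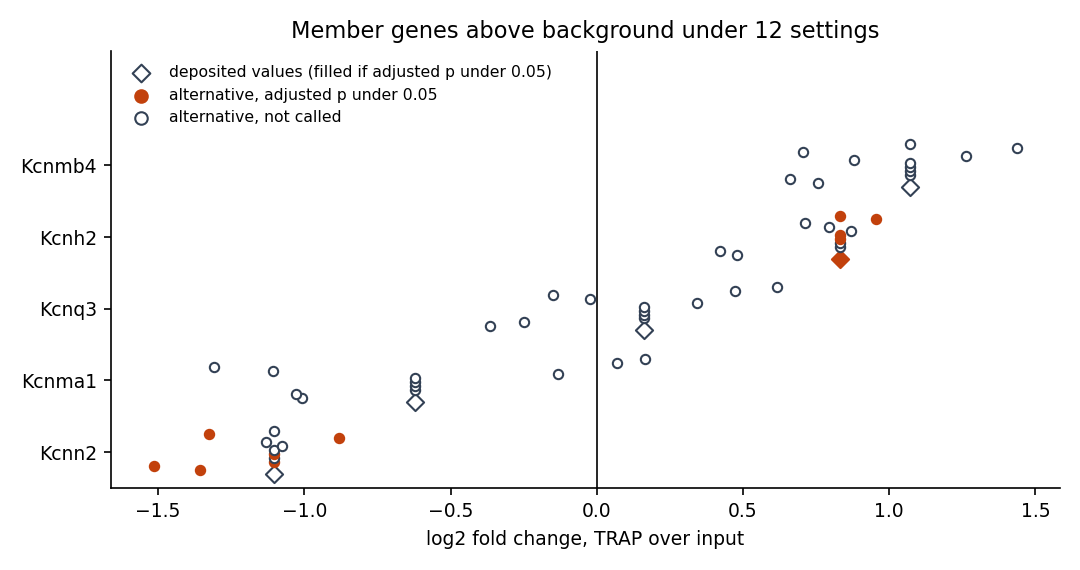
TRAP over input, as log2 fold change, for the 5 member genes above background on the deposited values (diamonds) and under each alternative (circles), filled where the adjusted p from limma was under 0.05. Kcnn2 stays between -1.51 and -0.88 and Kcnh2 between 0.42 and 0.95, while Kcnq3 and Kcnma1 fall on both sides of 0.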

How the data were processed

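RNA of up to 10 ng per sample was amplified in 2 cycles and hybridized to Affymetrix Mouse Genome arrays by the authors (all RINs above 7). The authors deposited log2 values made with GCRMA (version not given in the sources used here), 1 per probe set and array. From the 45101 probe sets 64 controls were removed. Probe sets were named through the platform annotation (34945 with 1 symbol), and all 9 member symbols are unchanged in the RefSeq table. TRAP and input were compared with limma 3.58.1 in R 4.3.3 (2-sided, Benjamini-Hochberg over 45037 probe sets, no covariate). The lowest values are 4.58 units in TRAP and 4.59 in input, and 15551 probe sets hold identical values within both fractions, so changes were counted above background only. A bound is the mean log2 level of the brighter fraction against 50 units. The adjusted p and interval given beside a bound belong to the log2 fold change of the deposited values. For gene lists the probe set with the highest mean was used. Members, lists and tests were chosen with earlier results of these data known. Named genes were all members, up to 4 of each list (called ones first, then the brightest) and the 3 highest and 3 lowest Kcn genes. The 3 genes most like the most changed member, chosen on brightest probe sets, were also named. Kcne5 and Kcne1l, listed separately, are 1 gene. The fit was tested on simulated data.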

Additional observations from a re-analysis of the deposited data

How the results depend on the processing

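With 2 arrays per fraction and an offset between the fractions, calls near the threshold moved with the fit. The alternatives for regulators were chosen after seeing the data.

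Member probe sets called higher went from 1 to 0, and called lower from 0 to 1, after quantile normalization, after centring and in a fit of probe sets above background only. With values under 50 units raised to 50 and at a threshold of 0.01, 0 were called higher and 0 lower, and with an intensity trend 1 was called each way. Leaving out 1 array at a time gave 0 to 1 in each direction. The related genes called lower went from 2 to 4 after centring and when probe sets were averaged per gene. They went to 3 in the fit above background and with a trend, and to 1 with raised values, a background of 100 units or a threshold of 0.01. Regulators called lower went from 1 to 0 with raised values and at 0.01, and to 2 with gene means, and regulators called higher from 0 to 1 after centring, in the fit above background and with a trend (0 to 1 each way without 1 array).

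Kcnn2 came to be called after quantile normalization (log2 fold change -1.36), centring (-1.51), in the fit above background and with a trend (-1.10 in both, adjusted p = 0.0389 and 0.0296 from limma), and ranged from -1.32 to -0.88 without 1 array. Kcnh2 was no longer called after quantile normalization (0.48), centring (0.42), in the fit above background, with raised values or at 0.01 (0.83 in these 3), and ranged from 0.71 to 0.95 without 1 array. Kcnq3 turned to -0.37 after quantile normalization and -0.25 after centring, and ranged from -0.15 to 0.47 without 1 array. Kcnma1 turned to 0.16 with gene means, which include its probe sets not above background. Without 1 array, its brightest probe set ranged from -1.31 to 0.0703 (without input replicate 2). Kcnh7, at the floor, turned to -0.26 after centring. Centring moved the median log2 fold change of all probe sets above background from 0.44 to 0.03, and the counts of these from 3213 higher and 1559 lower to 3745 and 3867, while raised values left 824 and 467. At 0.01 only the threshold differs. For the other changes the cause was not tested.

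No paired analysis was possible because TRAP and input share only 1 replicate number.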
